A study of Mus musculus with 4 samples.

Results

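Genomic positions of RING1B and of H3K27me3 were examined at the loci of 4 neuron subtype transcription factors, Lhx1, Onecut1, Pou4f1 and Bhlhe22, in the forelimb bud of the mouse embryo. The loci were taken as all array probes inside 4 position windows, chr11:84320000-84355000 for Lhx1, chr9:74620000-74660000 for Onecut1, chr14:103335000-103365000 for Pou4f1 and chr3:18235000-18255000 for Bhlhe22. These windows held 290 of the 474380 probes of the array set, 80 at Lhx1, 82 at Onecut1, 81 at Pou4f1 and 47 at Bhlhe22. Positions are those of the array, whose genome build, not given in the sources used, is older than GRCm38. The files carry no gene names, so the names rest on the windows and were not checked against an annotation of that build. The loci were chosen by their high RING1B and H3K27me3 ratios on these arrays, so all values below are descriptions and no test was made.

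Chromatin came from pooled whole forelimb buds of wild-type BDF1 embryos at stage E10.5, fixed for 20 min in 1% formaldehyde. Antibodies to RING1B or to H3K27me3 pulled down the chromatin, and after amplification this DNA was compared with the input in another dye on 2-colour tiling arrays (ChIP-chip). Of the 4 arrays, 1 per antibody covered a given locus, Bhlhe22 on design 1 and the other loci on design 2, with no replicate. Both groups share strain, stage and genotype and differ in the antibody. A whole-bud sample averages over its cells, so more cells with a mark and more of the mark per cell cannot be told apart. The files hold no expression values, and the tissue label was therefore not checked against marker genes.

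RING1B, the ubiquitin ligase of Polycomb repressive complex 1, attaches ubiquitin to histone H2A. H3K27me3 is the trimethyl mark that Polycomb repressive complex 2 sets on histone H3, and chromobox subunits of some complexes of the first kind bind it. Both are known to cover CpG-rich promoters of developmental regulators in cells that do not use them. Lhx1 encodes a LIM-homeodomain factor of spinal motor neurons and interneurons that also acts in head and kidney formation. Onecut1, also known as HNF6, encodes a cut-homeodomain factor of liver, pancreas and spinal neurons. Pou4f1, also known as Brn3a, encodes a POU-homeodomain factor of sensory neurons, and Bhlhe22, also known as Bhlhb5, a basic helix-loop-helix factor of retinal, spinal and cortical neurons.

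The 250 bases before the gene start are shown because the CpG content of such promoters is a property that the array ratios did not enter. RefSeq's promoter table, on GRCm38.p6, held 3 of the 4 genes, Lhx1 (chr11:84525535-84525784, minus strand), Onecut1 (chr9:74861671-74861920, plus strand) and Pou4f1 (chr14:104468000-104468249, minus strand). These positions are of another build than the array's and were not set against the probes. Sequences run 5′ to 3′ on the strand of the gene, with each CG in capitals.
Lhx1: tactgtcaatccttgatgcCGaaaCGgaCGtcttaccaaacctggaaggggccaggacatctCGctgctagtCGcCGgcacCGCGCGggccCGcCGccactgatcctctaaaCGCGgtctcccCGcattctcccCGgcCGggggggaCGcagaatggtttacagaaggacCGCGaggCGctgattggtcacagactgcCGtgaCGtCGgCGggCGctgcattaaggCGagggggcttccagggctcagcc
Onecut1: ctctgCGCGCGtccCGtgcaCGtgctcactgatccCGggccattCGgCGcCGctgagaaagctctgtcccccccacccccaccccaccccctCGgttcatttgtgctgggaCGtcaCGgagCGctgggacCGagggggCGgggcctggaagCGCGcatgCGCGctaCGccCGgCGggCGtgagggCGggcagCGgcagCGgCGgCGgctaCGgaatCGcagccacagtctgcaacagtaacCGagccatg
Pou4f1: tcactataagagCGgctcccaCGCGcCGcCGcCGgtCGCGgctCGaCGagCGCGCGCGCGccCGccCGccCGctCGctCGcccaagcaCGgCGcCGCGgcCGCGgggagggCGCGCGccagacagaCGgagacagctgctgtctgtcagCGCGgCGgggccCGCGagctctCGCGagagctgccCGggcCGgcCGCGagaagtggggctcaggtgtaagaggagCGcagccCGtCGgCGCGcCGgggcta

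The motif searched was CG, which reads the same on both strands. It occurred 26 times at Lhx1, 31 times at Onecut1 and 47 times at Pou4f1. The median over all 32851 promoter entries of the table was 6, and 92.1% of entries held at least 1 CG. As many as at Lhx1 were found in 9.59% of entries, as many as at Onecut1 in 5.19% and as many as at Pou4f1 in 0.25%. The GC content was 64.8% at Lhx1, 71.6% at Onecut1 and 78% at Pou4f1.

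Ratios are log2 of Cy5 over Cy3 of the processed signals, centred so that the median kept probe of an array is at 0. This direction opposes the labels, which put the precipitate in Cy3. It was read as likely because on the 4 arrays 552 to 1634 tiled regions had 3 neighbouring probes averaging at least 8-fold towards Cy5, while 3 to 33 did so towards Cy3. With the dyes as labelled every sign below turns, and what is described as high would be low. A probe was kept if it was well above background in both channels and not marked as an outlier. The 4 arrays kept 83.1% to 85.8% of their probes. Repeated spots of a control probe had a median SD of 0.13 to 0.15 (log2). Errors given with windows are standard deviations over their 3 probes, and leave out the variation from embryo pool to embryo pool.

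At all 4 loci most probes had high ratios for both antibodies. Of kept probes, 66 of 75 at Lhx1, 71 of 76 at Onecut1 and 76 of 79 at Pou4f1 were at least 2-fold for RING1B, against 18.7% of all kept probes of that array, and 43 of 46 at Bhlhe22, against 16.9%. For H3K27me3 the counts were 64 of 76 at Lhx1, 78 of 80 at Onecut1 and 75 of 79 at Pou4f1, against 24.3%, and 45 of 46 at Bhlhe22, against 27.3%. At least 8-fold, a log2 ratio of 3 or more, were 57 probes at Lhx1, 61 at Onecut1 and 72 at Pou4f1 for RING1B, against 4.34% of the array, and 36 at Bhlhe22, against 3.6%. The same threshold was passed for H3K27me3 by 56 probes at Lhx1, 59 at Onecut1 and 67 at Pou4f1, against 8.51%, and by 39 at Bhlhe22, against 11.9%. The choice of the loci used these ratios, and nothing is read from the gap to the background.

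**Figure D1:**
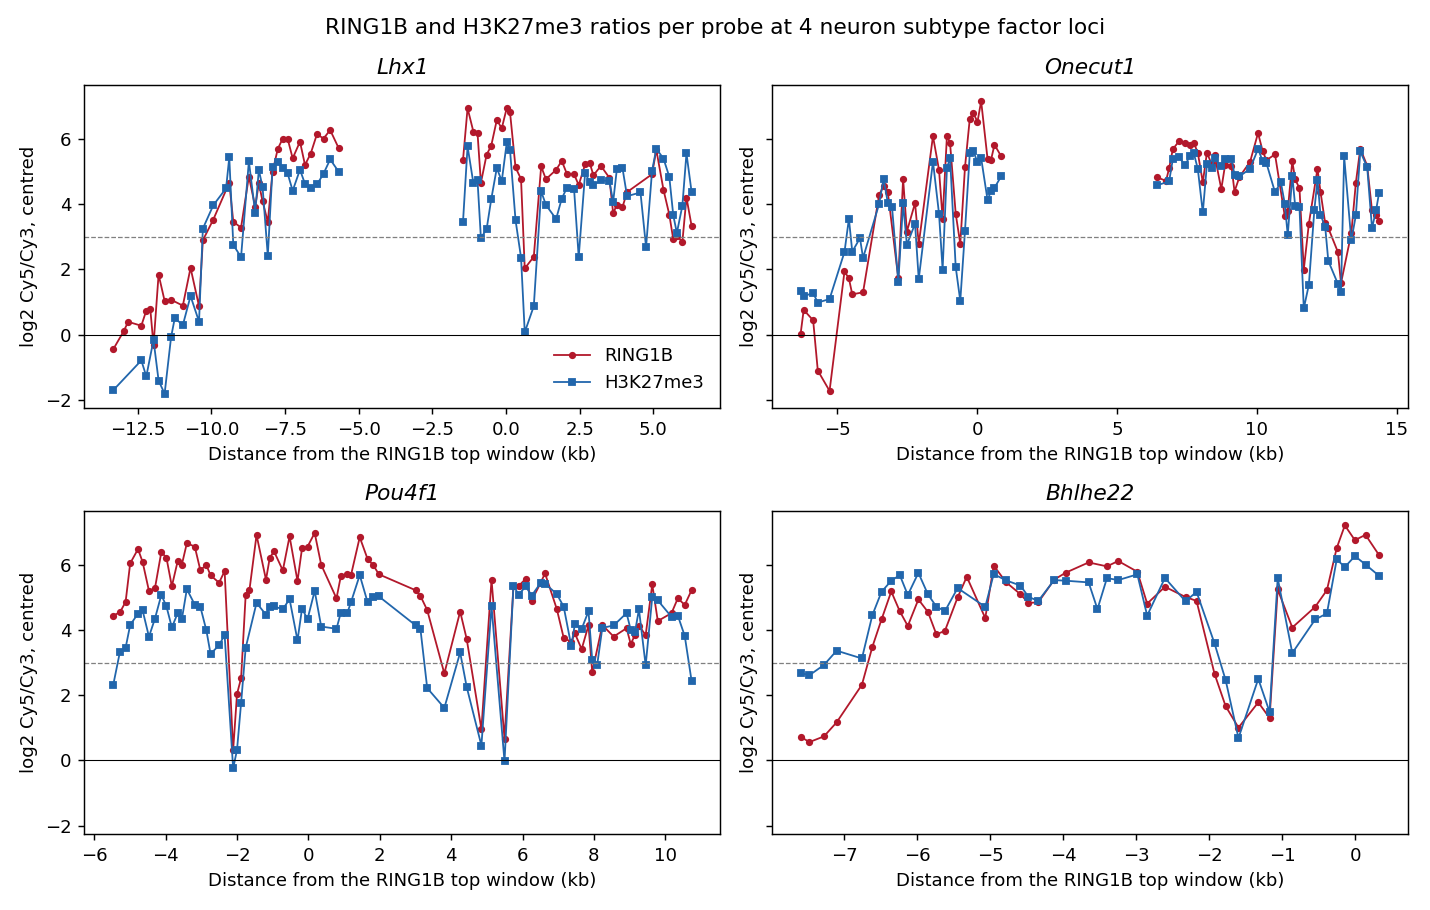
Centred log2 ratio (Cy5 over Cy3, vertical axis) of each kept probe against its distance in kb from the RING1B top window, for RING1B (red circles) and H3K27me3 (blue squares) at 4 loci; lines join neighbouring probes of one tiled region and the dashed line marks 8-fold. Most probes lie above the dashed line for both antibodies, and both fall together in short dips and at the lower-coordinate end of Lhx1, Onecut1 and Bhlhe22.

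Lhx1 was tiled in a pair of regions, chr11:84327406-84335111 and chr11:84339284-84347086, with 4.17 kb between them that carry no probe. RING1B peaked in the second, at chr11:84340599-84340926, where the 3 probes read 6.33, 6.96 and 6.82, a mean of 6.71 ± 0.33. H3K27me3 peaked over the same 3 probes, which read 4.71, 5.91 and 5.67, a mean of 5.43 ± 0.64. Both antibodies thus had their highest window in 1 place at this locus.

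The first Lhx1 region held a step. Its outermost window was at 0.01 ± 0.43 for RING1B and -1.26 ± 0.46 for H3K27me3, the lowest windows of the locus. They share only the outermost probe, as the next probes were not kept for H3K27me3. The RING1B window was chr11:84327406-84327972 and the H3K27me3 window chr11:84327406-84328588. The innermost window of the region, next to the untiled stretch, was at 6.01 ± 0.27 for RING1B and 5.11 ± 0.24 for H3K27me3. Across 7.71 kb RING1B thus went from the level of a typical probe, and H3K27me3 from below it, to nearly the level of the peak. Among the loci on its array, Lhx1 had the lowest H3K27me3 probe, at -1.81, and 7 of its 76 kept probes were below 0 for that mark. By the centring, the median kept probe of the array is at 0. In the gene table of GRCm38 the neighbouring protein-coding genes of Lhx1 are Aatf and Mrm1. Which of these probes lie in Aatf was not determined, since the builds differ.

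At Onecut1 the tiled regions were chr9:74630294-74637522 and chr9:74643049-74651034, with 5.53 kb without probes between them. RING1B peaked near the inner end of the first, at chr9:74636467-74636809, where the 3 probes read 6.80, 6.53 and 7.16, a mean of 6.83 ± 0.32. H3K27me3 peaked 126 bp from there, at 5.50 ± 0.19, from probes of 5.56, 5.64 and 5.28. The second region had a lower top for RING1B, at 5.88 ± 0.06, while its H3K27me3 top of 5.43 ± 0.23 differed from that of the first by less than the SD. Its RING1B median was higher, at 4.84 against 4.28. At least 8-fold for RING1B were 21 of 33 kept probes in the first region and 40 of 43 in the second, where single probes ranged from 1.58 to 6.19.

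The outer end of the first Onecut1 region differed between the antibodies. The lowest RING1B window of the locus lay there, at -0.80 ± 1.11, while H3K27me3 in the same place was at 1.12 ± 0.15. No kept H3K27me3 probe of this locus was below 0, the lowest being 0.80, whereas the lowest RING1B probe was -1.73.

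Pou4f1 was tiled without a gap over 16.2 kb, chr14:103342800-103359048, and had the highest RING1B median of the 3 loci on its array, 5.34 with quartiles of 4.21 and 5.99. RING1B peaked at chr14:103348086-103348500, where the 3 probes read 6.50, 6.56 and 6.98, a mean of 6.68 ± 0.26. H3K27me3 had its highest window 6.73 kb away, at chr14:103354772-103355280, with probes of 5.45, 5.42 and 5.10 and a mean of 5.33 ± 0.19. Its highest single probe, at 5.69, lay only 1439.5 bp from the centre of the RING1B window. The next probes there read 4.85 and 5.02, so the place of the H3K27me3 peak is not firmly set. In the RING1B window H3K27me3 was 4.73 ± 0.44, below its own top. Neither end of the tiling reached the level of a typical probe, as RING1B ended at 4.62 ± 0.22 on the lower and 4.99 ± 0.23 on the higher side. H3K27me3 ended at 3.03 ± 0.63 and 3.57 ± 1.02. The extent of the domain was therefore not bounded by these probes.

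Bhlhe22 had 1 tiled region, chr3:18241024-18249005. RING1B reached 7.21, 6.76 and 6.92 at the 3 probes of its top window, chr3:18248477-18248819, a mean of 6.96 ± 0.23. H3K27me3 peaked 128 bp from there, at 6.12 ± 0.17, from probes of 6.17, 5.93 and 6.27. These tops lay at the upper end of the tiling, whose last window was still 6.66 ± 0.32 for RING1B and 5.98 ± 0.30 for H3K27me3. At the other end RING1B was near the level of a typical probe, at 0.67 ± 0.10, while H3K27me3 stood at 2.74 ± 0.17.

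On design 2, the RING1B tops of Onecut1, Lhx1 and Pou4f1 stood in that order and differed by less than their standard deviations. The same held for H3K27me3, in the same order. Bhlhe22, on the other design, was not ranked against them, because the spread of the ratios differed between arrays. Over all kept probes, RING1B ratios had an SD of 1.33 on design 1 and 1.41 on design 2, and H3K27me3 ratios 1.91 and 1.68. With loess normalization the RING1B tops were 5.28 at Lhx1, 5.21 at Onecut1, 5.27 at Pou4f1 and 6.09 at Bhlhe22, and the H3K27me3 tops 4.22, 4.30, 4.20 and 3.22, all still at least 8-fold. With normexp background correction they were 5.70, 6.31, 5.89 and 5.90 for RING1B and 4.36, 4.57, 4.43 and 5.44 for H3K27me3.

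Among tiled regions outside the respective locus, 18 of 9995 had a higher RING1B top window than Lhx1, 10 of 9995 than Onecut1, 22 of 9996 than Pou4f1 and 3 of 10239 than Bhlhe22. At Lhx1 and Onecut1 the top was taken over both tiled regions and set against single regions. For H3K27me3, 49 of 9983 regions were higher than Lhx1, 35 of 9983 than Onecut1, 88 of 9984 than Pou4f1 and 16 of 10321 than Bhlhe22. With the dyes as labelled these ranks turn, and Lhx1, Onecut1, Pou4f1 and Bhlhe22 would stand 19th, 11th, 23rd and 4th from the lowest for RING1B and 50th, 36th, 89th and 17th for H3K27me3. A top window of at least 8-fold was reached by 6.74% of regions on design 2 and 5.39% on design 1 for RING1B, and by 13.6% and 15.8% for H3K27me3. All 6 tiled regions of the loci were past it for both antibodies, as their choice implies.

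**Figure D2:**
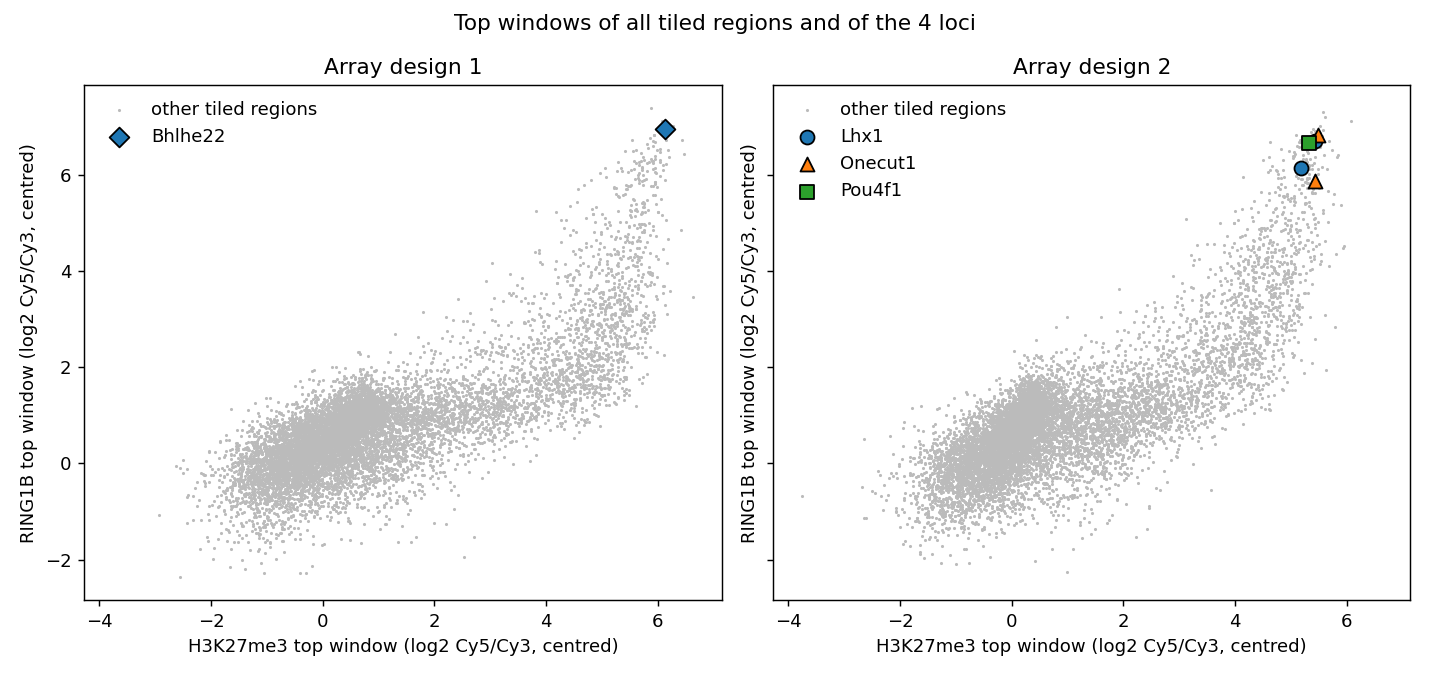
RING1B top window (vertical axis) against H3K27me3 top window (horizontal axis), both as centred log2 Cy5 over Cy3, for each tiled region of design 1 (left) and design 2 (right); grey points are other regions and large symbols the tiled regions of the 4 loci, 2 each for Lhx1 and Onecut1. The loci lie in the upper right corner, with RING1B at 5.88 to 6.96 and H3K27me3 at 5.19 to 6.12.

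The high ratios covered most of each tiled stretch. Of the windows of 3 neighbouring kept probes, 80.3% at Lhx1, 86.1% at Onecut1, 96.1% at Pou4f1 and 81.8% at Bhlhe22 were at least 8-fold for RING1B. For H3K27me3 these shares were 80.6%, 77.6%, 87.0% and 88.6%. In the other regions at least 8-fold for both antibodies, the median share for RING1B was 27.8% on design 2 (651 regions, quartiles 12.1% and 52.1%) and 22.7% on design 1 (546 regions, upper quartile 50%). For H3K27me3 the medians were 50% (quartiles 31.1% and 69.5%) and 70.4% (quartiles 48.5% and 90.9%). All 4 loci lay above the upper quartile of other shared regions for RING1B. For H3K27me3 Bhlhe22 lay within the quartiles of its design and the other 3 above them. The share of a locus pools all its windows, from both tiled regions at Lhx1 and Onecut1, while the other shares are of single regions. The loci were chosen by high ratios, which favours high shares, so nothing is read from this gap. The most similar regions described below were sought by these shares among other measures. Their shares were 80.6% to 97.8% for RING1B and 71.1% to 89.5% for H3K27me3.

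Unbroken runs of windows at least 8-fold for RING1B reached 7.31 kb at Lhx1 (chr11:84339284-84346588), 6.51 kb at Onecut1 (chr9:74643049-74649561), 7.18 kb at Pou4f1 (chr14:103346274-103353448) and 5.03 kb at Bhlhe22 (chr3:18241863-18246896). The longest H3K27me3 runs were 5.40 kb, 5.14 kb, 5.65 kb and 5.55 kb. The RING1B runs at Lhx1 and Onecut1 began at the first probe of a tiled region, so their lengths are lower limits. At Lhx1, Onecut1 and Bhlhe22 the longest run of RING1B and of H3K27me3 overlapped. At Pou4f1 the longest H3K27me3 run, chr14:103353399-103359048, began where the longest RING1B run ended. RING1B was high beyond that point too, in another of its 3 runs at this locus. Of all its windows at Pou4f1, 96.1% were at least 8-fold. The H3K27me3 runs of Lhx1, Onecut1 and Pou4f1 each reached an end of the tiling too.

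The antibodies were compared on the same probes. Across the probes kept for both, the ratios correlated with r = 0.865 and rho = 0.708 at Lhx1 (72 probes), r = 0.878 and rho = 0.903 at Onecut1 (75 probes), r = 0.789 and rho = 0.621 at Pou4f1 (78 probes) and r = 0.915 and rho = 0.888 at Bhlhe22 (45 probes). Over all probes of designs 1 and 2, r was 0.678 and 0.673, and rho was 0.585 and 0.561. Neighbouring probes are not independent, and both ratios share the probe sequences. The Cy3 signals of the 2 arrays correlated with r = 0.860 to 0.969 at the loci and the Cy5 signals with r = 0.736 to 0.936. At least 8-fold for both antibodies were 51, 54, 66 and 35 probes at Lhx1, Onecut1, Pou4f1 and Bhlhe22. For RING1B alone these counts were 6, 6, 5 and 0, and for H3K27me3 alone 3, 1, 1 and 3. The matching shares over all probes of the arrays were not computed, so nothing is read from these joint counts.

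In the RING1B top window RING1B exceeded H3K27me3 by 1.27 ± 0.30 at Lhx1, 1.38 ± 0.32 at Onecut1, 1.95 ± 0.24 at Pou4f1 and 0.89 ± 0.40 at Bhlhe22 on the log2 scale. The window was picked for its RING1B, which favours this sign. Under loess the difference was 1.03 at Onecut1, 1.61 at Pou4f1 and 3.45 at Bhlhe22, and under normexp 2.07 at Onecut1 and 0.49 at Bhlhe22. Over all probes kept for both, the median difference was 0.78 at Lhx1, 0.40 at Onecut1 and 1.10 at Pou4f1, and RING1B was higher in 52 of 72, 57 of 75 and 64 of 78 probes. At Bhlhe22 the median was -0.27 and RING1B was higher in 18 of 45. The share of probes with higher RING1B over the whole arrays was not computed, so nothing is read from these counts. The median over all probes was 0.08 on design 2 and -0.06 on design 1. Among probes outside the loci at least 8-fold for RING1B it was 0.29 on design 2 and -0.47 on design 1. The antibodies have unlike scales, so a difference of ratios does not measure relative occupancy.

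Within each locus the difference shifted along the chromosome. Probes kept for both antibodies were divided by position into 5 groups of nearly equal number. The tiling was not used in this division, and the middle groups of Lhx1 and Onecut1 span the stretch without probes. Groups with probes of the RING1B top window hold probes picked for high RING1B. Counts of probes with higher RING1B have no share over the arrays beside them, and nothing is read from them. At Lhx1 the mean difference was 1.45 ± 0.41 (SD over 14 probes) in the middle group, where RING1B was higher in 14 of 14 probes, and -0.64 ± 0.55 in the group of highest coordinates, where it was higher in 2 of 14. H3K27me3 was as high in that outer group, at 4.63 ± 0.76, as in the middle, at 4.59 ± 0.98, while RING1B went from 6.04 ± 0.70 to 3.99 ± 0.82. In the group between these, RING1B was 4.61 ± 1.04 and H3K27me3 3.55 ± 1.54, a difference of 1.06 ± 0.74. From there to the outer group RING1B fell and H3K27me3 rose, so the shift at that end was not assigned to either antibody. The middle group also holds the RING1B top window, picked for its RING1B.

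At Onecut1 the group of lowest coordinates had a difference of -0.71 ± 1.03, with RING1B higher in 5 of 15 probes, and the next group 1.24 ± 0.43, with 15 of 15. The remaining groups stood at 0.51 ± 0.34, 0.19 ± 0.53 and 0.49 ± 0.66. At Pou4f1 the first 3 groups had 1.51 ± 0.32, 1.63 ± 0.50 and 1.31 ± 0.50, and RING1B was higher in 16 of 16 probes of each. The last groups had 0.13 ± 0.61 and 0.17 ± 0.89, with RING1B higher in 9 of 15 and 7 of 15. H3K27me3 averaged 4.25 ± 0.74 in the first and 4.06 ± 0.74 in the last group of Pou4f1, while RING1B averaged 5.76 ± 0.72 and 4.23 ± 0.69.

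At Bhlhe22, as at Onecut1, the lowest difference lay in the group of lowest coordinates. It was -1.39 ± 0.71 there, with RING1B higher in 0 of 9 probes, and 0.58 ± 0.45 in the group of highest coordinates, with 8 of 9. RING1B averaged 2.56 ± 1.86 and H3K27me3 3.95 ± 1.26 in the former, against 5.88 ± 1.10 and 5.31 ± 1.03 in the latter.

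**Figure D3:**
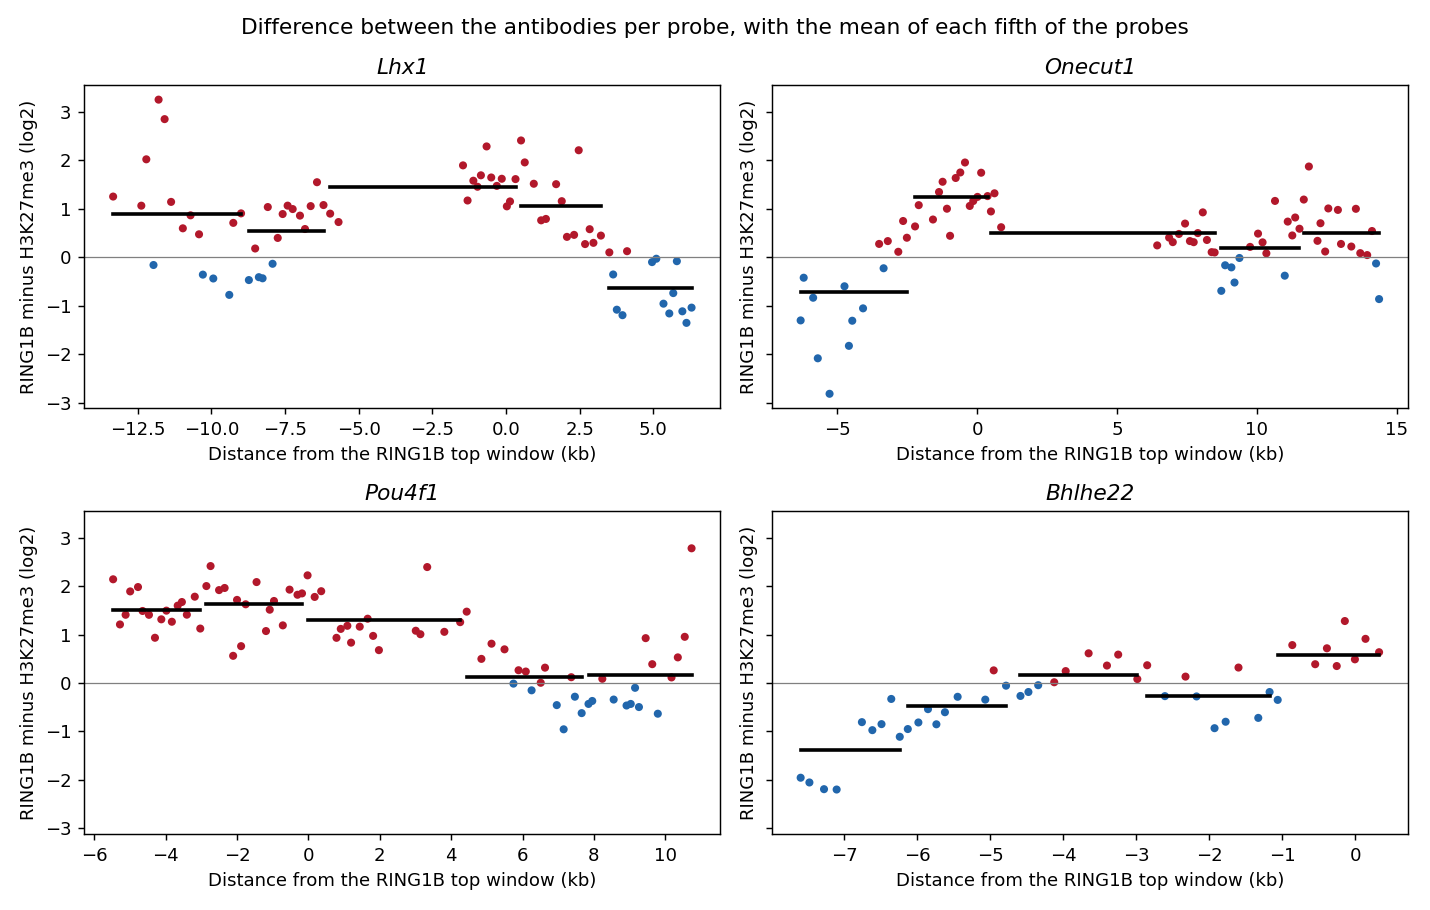
RING1B minus H3K27me3 (log2, vertical axis) of each probe kept for both antibodies against its distance in kb from the RING1B top window; red points have higher RING1B, blue points higher H3K27me3, and black bars are means of 5 groups of neighbouring probes. The means run from -0.64 to 1.45 at Lhx1, from -0.71 to 1.24 at Onecut1, from 0.13 to 1.63 at Pou4f1 and from -1.39 to 0.58 at Bhlhe22.

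Short dips interrupted the high stretches. In each tiled region the lowest RING1B window between windows at least 8-fold was taken. At Pou4f1 it covered 268 bp at chr14:103346165-103346432, with RING1B at 1.63 ± 1.16 and H3K27me3 at 0.61 ± 1.04. At Bhlhe22, over 471 bp at chr3:18247028-18247498, RING1B was 1.36 ± 0.39 and H3K27me3 1.56 ± 0.91. In the second Onecut1 region, over 525 bp at chr9:74649517-74650041, RING1B was 2.41 ± 0.77 and H3K27me3 2.80 ± 1.91, the latter over 4 probes. Of these 4, the probe at 5.47 was not kept for RING1B. At the 3 probes kept for both, RING1B read 2.54, 1.58 and 3.11, and H3K27me3 1.56, 1.30 and 2.89, lower at each. In the other regions, those of Lhx1 and the first of Onecut1, the lowest such windows were shallower for RING1B, at 2.93 to 3.80. A narrower dip in the second Lhx1 region was missed by the windows. Its probes, 638.5 and 945.5 bp above the RING1B top window, read 2.03 and 2.39 for RING1B. H3K27me3 there read 0.07 and 0.87. Their log2 Cy3 was 13.6 and 11.6 on the RING1B array, against a locus median of 9.96. On the H3K27me3 array it was 14.8 and 13.3, against 10.39. These probes too were picked for low ratios. The dips at Pou4f1, Bhlhe22 and the second Onecut1 region had raised Cy3. They were picked for a low ratio and compared with probes picked for a high one, which favours higher Cy3 and lower Cy5 inside. The mean log2 Cy3 of the RING1B array inside them was 12.3 at Pou4f1, 11.4 at Bhlhe22 and 11.9 at Onecut1, against 10.2, 9.56 and 9.84 at the probes at least 8-fold of the same regions. On the H3K27me3 array it was 13.0, 12.1 and 12.2, against 10.3, 10.2 and 10.3. The 12.2 at Onecut1 includes the probe not kept for RING1B, whose log2 Cy3 was 9.10. Cy5 of the RING1B array was also lower, at 14.0, 12.8 and 14.3, against 15.5, 14.8 and 14.7. On the H3K27me3 array Cy5 was lower at Pou4f1, at 13.8 against 14.8, and at Bhlhe22, at 13.7 against 15.5, but not at Onecut1, at 15.2 against 15.1. The part of either dye in the dips was not tested.

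At the low ends both dyes were also read. In the outermost window of Lhx1 the mean log2 Cy3 of the RING1B array was 9.51, near the array median of 9.85, and Cy5 was 9.52, against a locus median of 14.8. On the H3K27me3 array, whose outermost window shares only the outermost probe, Cy3 was 10.3 and Cy5 9.27, against a locus median of 14.9. In the lowest-coordinate windows of Onecut1 and Bhlhe22, Cy5 of the RING1B array was 10.7 and 10.8, against locus medians of 14.5 and 14.2. Cy3 there was 10.3 and 10.2, against locus medians of 10.2 and 9.54, so that it was somewhat higher at Bhlhe22.

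**Figure D4:**
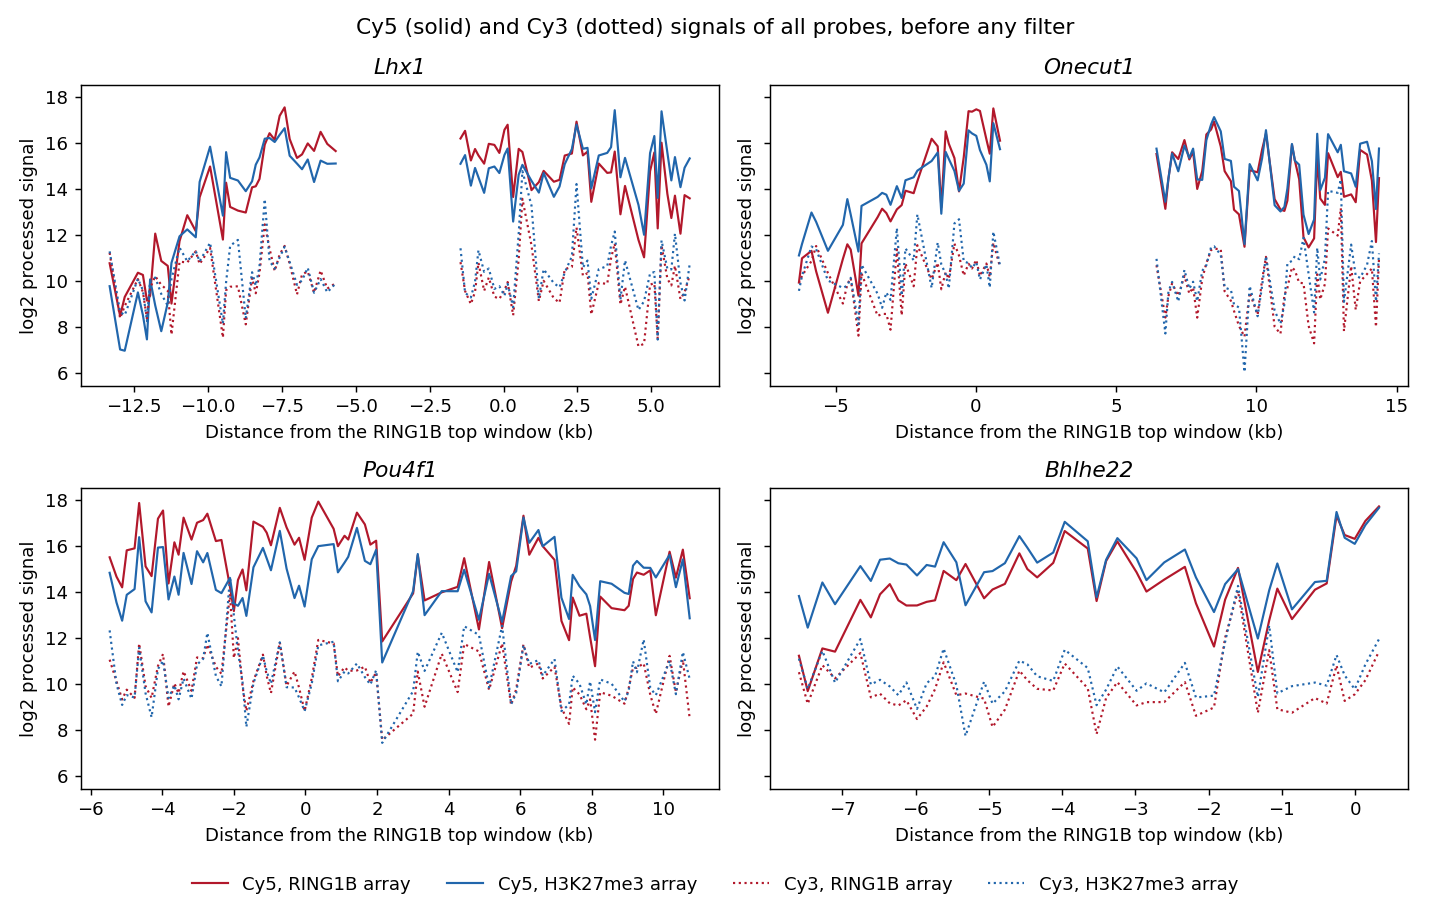
Processed Cy5 (solid) and Cy3 (dotted) signals on a log2 axis of all probes of the 4 loci, before any filter, against distance in kb from the RING1B top window, for the RING1B array (red) and the H3K27me3 array (blue). Cy5 lies above Cy3 over most of each locus; at the left end of Lhx1 Cy5 drops to the level of Cy3, while Cy3 rises in the dip about 2 kb left of the top window of Pou4f1.

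Around the loci the tiled regions were mostly low, as were most regions of the arrays. The 3 nearest regions with a value on each side were taken. Of 24, 1 had a RING1B top window of at least 8-fold and 4 of 24 had one for H3K27me3. Their median tops were 0.94 and 0.48. Anywhere on design 2, 6.74% of regions reached such a RING1B top and 13.6% such an H3K27me3 top. On design 1 it was 5.39% and 15.8%. Flanks this low were thus common, and nothing is read from their level. Around Lhx1 RING1B ranged from -0.92 to 1.54 and H3K27me3 from -1.06 to 0.69 in the 6 regions. They lay 286 to 341 kb away. Around Onecut1 RING1B reached at most 2.20 and around Pou4f1 2.45. The nearest region to Pou4f1, 46.9 kb above it, had RING1B at 1.46 ± 0.28 and H3K27me3 at 1.32 ± 0.26, and the nearest to Onecut1, 106 kb above it, 1.97 ± 0.41 and 1.41 ± 0.33.

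H3K27me3 without RING1B past 8-fold appeared in 3 of these flanking regions. They were chr9:72894529-72901847 below Onecut1, with 3.97 ± 0.51, and chr14:102531748-102538295 and chr14:102726997-102735568 below Pou4f1, with 3.84 ± 0.20 and 3.51 ± 1.10. The exception for RING1B lay 251 kb below Bhlhe22, at chr3:17982487-17990215, with RING1B at 5.58 ± 0.36 and H3K27me3 at 5.95 ± 0.07. Its next neighbours further down, 1863 and 1868 kb from Bhlhe22, were at 1.25 ± 0.42 and 0.54 ± 0.43 for RING1B. In the gene table of GRCm38 the neighbouring protein-coding genes are Wdr72 and Fam214a for Onecut1, Ednrb and Obi1 for Pou4f1, and Cypt12 and Cyp7b1 for Bhlhe22. The flanking regions were not assigned to them.

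**Figure D5:**
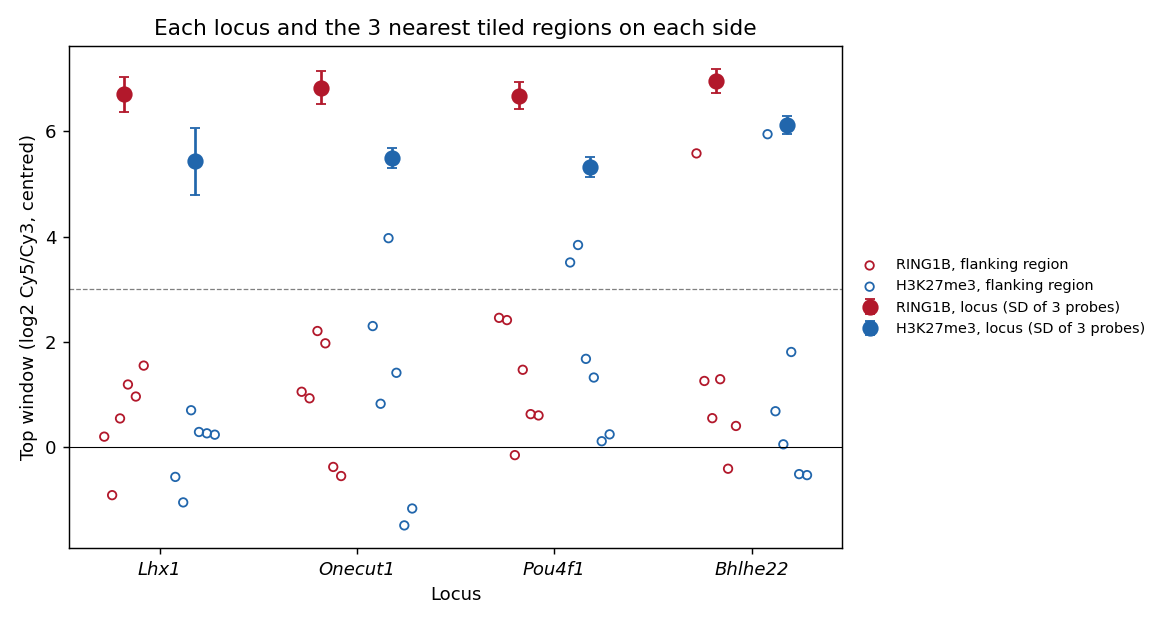
Top window (centred log2 Cy5 over Cy3, vertical axis) of each locus (filled circles, error bars are SD over 3 probes) and of the 3 nearest tiled regions on each side (open circles) for RING1B (red) and H3K27me3 (blue); the dashed line marks 8-fold. All flanking regions but 1 lie below 2.5 for RING1B, the exception being the region at 5.58 beside Bhlhe22.

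Regions with the most similar pattern were sought on the array of each locus, by the distance over 4 measures, the top windows of both antibodies and their shares of windows at least 8-fold, each in units of its SD over regions. Nearest to Pou4f1 were chr13:48669623-48677686 (RING1B 6.57 ± 0.40, H3K27me3 5.45 ± 0.27) and chr13:117428007-117435752 (6.85 ± 0.44 and 5.09 ± 0.15), at distances of 0.18 and 0.22. The region chr13:72427212-72435164 (6.47 ± 0.14 and 5.31 ± 0.30) was among the nearest 2 of both Onecut1 and Lhx1, at 0.34 and 0.55. Nearest to Lhx1 was chr14:63539442-63547219 (6.35 ± 0.43 and 5.22 ± 0.86), at 0.48, and second to Onecut1 chr9:98759842-98767521 (6.80 ± 0.38 and 5.43 ± 0.36), at 0.45. For Bhlhe22 they were chr5:42050124-42057644 (6.57 ± 0.08 and 5.82 ± 0.46) and chr2:146774423-146782182 (6.73 ± 0.50 and 5.53 ± 0.04), at 0.37 and 0.41. The search covered 9796 regions on design 2 and 10105 on design 1.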

How the data were processed

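RING1B and H3K27me3 ChIP-chip was measured on 4 arrays, 1 per antibody and array design, with groups taken from the antibody in the labels. The deposited intensity values are Cy5 and Cy3 signals that, per the file headers, Agilent Feature Extraction 10.1.1.1 corrected for a spatial background, detrended and scaled linearly between dyes. The deposited log10 ratio is of processed Cy5 over Cy3. The deposited log2 value table matched it within 0.001 for 99.7% to 99.9% of probes, with medians of -0.16, -0.11, 0.02 and -0.12 for H3K27me3 and RING1B on design 1 and then on design 2, so it is not centred. Its direction rests on the scanner files. The sources used here name no build for the probe positions.

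From the processed signals, log2 Cy5 over Cy3 was computed and shifted to put the median kept probe at 0. Control spots, outlier spots and probes that failed the background flag in either channel were left out, and no probe of the loci was saturated. Probes with starts within 1000 bp of each other formed a tiled region, and means of 3 neighbouring kept probes were windows. The window search was tested on simulated data. With 1 array per antibody and locus there was no test. The number of arrays limits the precision.

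Described were the 4 loci, the 3 nearest tiled regions on each side and the 2 most similar regions per locus. Loci and measures were chosen with earlier results of these data known. Alternatives were loess, normexp (offset 50, raw median signals), the value table, other filters, centring, windows and thresholds. Python 3.11.15, pandas 2.3.3, numpy 2.4.6, R 4.3.3 and limma 3.58.1 were used.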

Additional observations from a re-analysis of the deposited data

How the results depend on the processing

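Of 168 alternative values, 138 moved by less than the SD over the probes of a window or, for counts, stayed within 1.5 times, 29 moved further and 1 changed sign. Counts of probes at least 2-fold stayed within 1.5 times under every setting run. Under loess the RING1B tops were 5.28 at Lhx1, 5.21 at Onecut1, 5.27 at Pou4f1 and 6.09 at Bhlhe22, the H3K27me3 tops 4.22, 4.30, 4.20 and 3.22, and the differences 1.03 at Onecut1, 1.61 at Pou4f1 and 3.45 at Bhlhe22. Under normexp the RING1B tops were 5.70, 6.31, 5.89 and 5.90, the H3K27me3 tops 4.36, 4.57, 4.43 and 5.44, and the differences 2.07 at Onecut1 and 0.49 at Bhlhe22. Centring on the mean gave H3K27me3 tops of 5.26 at Onecut1, 5.09 at Pou4f1 and 5.78 at Bhlhe22. Without the filter on dim probes the Bhlhe22 H3K27me3 top was 6.32, and windows of 5 probes gave a RING1B top of 6.50 at Onecut1. The difference of medians over all probes was 0.36 at Lhx1, 0.64 at Onecut1, 0.97 at Pou4f1 and, with its sign changed, -0.24 at Bhlhe22. The cause of these moves was not tested. No paired analysis was possible because the numbers 1 and 2 in the labels are the array designs, which share no probes of these loci, and no test was made. With the dyes as the labels give them, every sign turns.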
